A study of Homo sapiens with 7 samples.

Results

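The loci described here are 8 windows of the genome around imprinted genes: H19/IGF2, KCNQ1/CDKN1C, DLK1/MEG3, SNRPN, GNAS, PLAGL1, IGF2R and GRB10. The measurement was of 5-hydroxymethylcytosine (5-hmC), the oxidised form of 5-methylcytosine that TET enzymes make, in SK-N-BE(2), an established MYCN-amplified neuroblastoma cell line labelled wild type in every sample. Cells grown in RPMI medium with 10% serum were kept at 21% oxygen (0 h) or moved to 1% oxygen and taken after 6, 12, 24, 48 and 72 h, and DNA fragments carrying 5-hmC were captured and sequenced, with 1 library per time. A peak, an enriched stretch called by the authors in hg19 coordinates, was assigned to a locus by its midpoint. The lists held 285292, 292707, 294096, 312126, 336931 and 352484 peaks at 0, 6, 12, 24, 48 and 72 h. Of these, 365, 362, 367, 384, 369 and 376 peaks fell in the 8 windows, 2223 of 1873636 peaks over all lists.

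Imprinted genes are expressed mainly from the allele of 1 parent, and the choice is held by control regions whose cytosines are methylated on one parental allele. Such allelic methylation is a possible substrate for TET enzymes, which need molecular oxygen, so 5-hmC at imprinted genes can be present on the methylated allele. The capture used here does not tell the parental alleles apart. H19 makes a noncoding RNA from the maternal allele, and its neighbour IGF2 encodes a fetal growth factor made from the paternal allele. KCNQ1 encodes a potassium channel subunit and CDKN1C an inhibitor of cyclin-dependent kinases. DLK1 encodes a membrane protein related to Notch ligands, and MEG3 a noncoding RNA from the other allele of the same locus. SNRPN, in the Prader-Willi region, encodes a splicing protein, GNAS the stimulatory G protein alpha subunit, PLAGL1 a zinc finger transcription factor, IGF2R the receptor that clears IGF2, and GRB10 an adaptor of growth factor receptors.

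With a single library per time, no value has a replicate error, and every difference is between 2 libraries. Read depth is unknown, and time in low oxygen cannot be told apart from time in culture. Intervals are 95% exact intervals that cover counting error only. The cell line's identity could not be checked against markers, since the lists hold no expression values. Gene positions were not joined to the peaks, because the annotation at hand is for another build, so which exon, intron or promoter a peak lies in was not determined.

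Since 5-hmC arises mainly at cytosines followed by guanine (CpG), the CpG content of the members' promoters was read from RefSeq (GRCh38.p14, 250 bases before to 50 after a start). Of 10 of the named genes, all but CDKN1C, 7 were matched by symbol, with 25 promoters, and DLK1, IGF2 and KCNQ1 were not matched. The motif searched was CG, which reads the same on both strands, and 96.0% of the 35116 promoters in the table hold it, with a median of 14 per promoter. Promoters of H19 and PLAGL1 are shown because the H19/IGF2 window was dense in peaks and the PLAGL1 window nearly empty. No peak was placed on them, since the builds differ. The CpG letters are in capitals. The H19 promoter (chr11:2001217-2001516, minus strand) has 6 CpG, a number reached by 66.3% of promoters. The PLAGL1 promoter with the most CpG (chr6:144008210-144008509, minus strand) has 39, reached by 8.71%. The other PLAGL1 promoters have 2, 3, 3 and 31 CpG.
H19: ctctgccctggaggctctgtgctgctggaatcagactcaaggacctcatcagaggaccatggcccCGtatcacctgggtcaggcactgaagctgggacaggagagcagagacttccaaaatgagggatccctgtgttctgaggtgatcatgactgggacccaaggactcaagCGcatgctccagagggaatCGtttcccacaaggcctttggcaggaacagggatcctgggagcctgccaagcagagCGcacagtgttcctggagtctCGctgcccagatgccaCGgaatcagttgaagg
PLAGL1: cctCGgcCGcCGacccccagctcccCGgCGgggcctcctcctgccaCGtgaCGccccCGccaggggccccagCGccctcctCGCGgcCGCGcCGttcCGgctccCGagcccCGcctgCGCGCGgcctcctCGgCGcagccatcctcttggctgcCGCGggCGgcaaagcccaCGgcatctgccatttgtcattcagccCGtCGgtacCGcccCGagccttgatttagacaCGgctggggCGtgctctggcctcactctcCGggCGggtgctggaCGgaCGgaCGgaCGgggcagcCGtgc

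The loci differed widely in how many 5-hmC peaks they held. In the 150 kb H19/IGF2 window (chromosome 11 from 2010001 to 2160000) there were 44, 43, 48, 43, 38 and 39 peaks at 0, 6, 12, 24, 48 and 72 h. The 455 kb KCNQ1/CDKN1C window (chromosome 11 from 2460001 to 2915000) held 104, 95, 98, 104, 99 and 101 peaks. In the 360 kb DLK1/MEG3 window (chromosome 14 from 101190001 to 101550000) the numbers were 146, 150, 152, 158, 154 and 155. These 3 loci and GNAS were dense at every time, with at least 20.9 peaks per 100 kb.

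GNAS, an 80 kb window (chromosome 20 from 57410001 to 57490000), held 18, 20, 23, 19, 23 and 22 peaks at these times. GRB10, 209 kb (chromosome 7 from 50656001 to 50865000), held 17, 15, 17, 20, 18 and 24. IGF2R, 140 kb (chromosome 6 from 160390001 to 160530000), held 10, 15, 11, 15, 13 and 11. Of these 3, GRB10 and IGF2R stayed under 12 peaks per 100 kb throughout.

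SNRPN, the widest window at 640 kb (chromosome 15 from 25060001 to 25700000), held 26, 23, 17, 24, 24 and 23 peaks. PLAGL1, 130 kb (chromosome 6 from 144260001 to 144390000), held 0, 1, 1, 1, 0 and 1. The PLAGL1 window was thus empty at 0 and 48 h, and it never held more than 1 peak.

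Set against all windows of the same length on chromosomes 1 to 22 and X, DLK1/MEG3 stood high and PLAGL1 and SNRPN low. By mean peak number over the 6 lists, 99.6% of 8442 windows had fewer peaks than DLK1/MEG3. The corresponding share was 92.9% for H19/IGF2, 89.8% for GNAS and 88.9% for KCNQ1/CDKN1C. It was 54.5% for IGF2R and 52.7% for GRB10. SNRPN had more peaks than 26.8% of 4753 windows, and PLAGL1 more than 21.1% of 23360. At 0 h, 22.4% of the windows of PLAGL1's length held no peak, so an empty window was common.

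**Figure D1:**
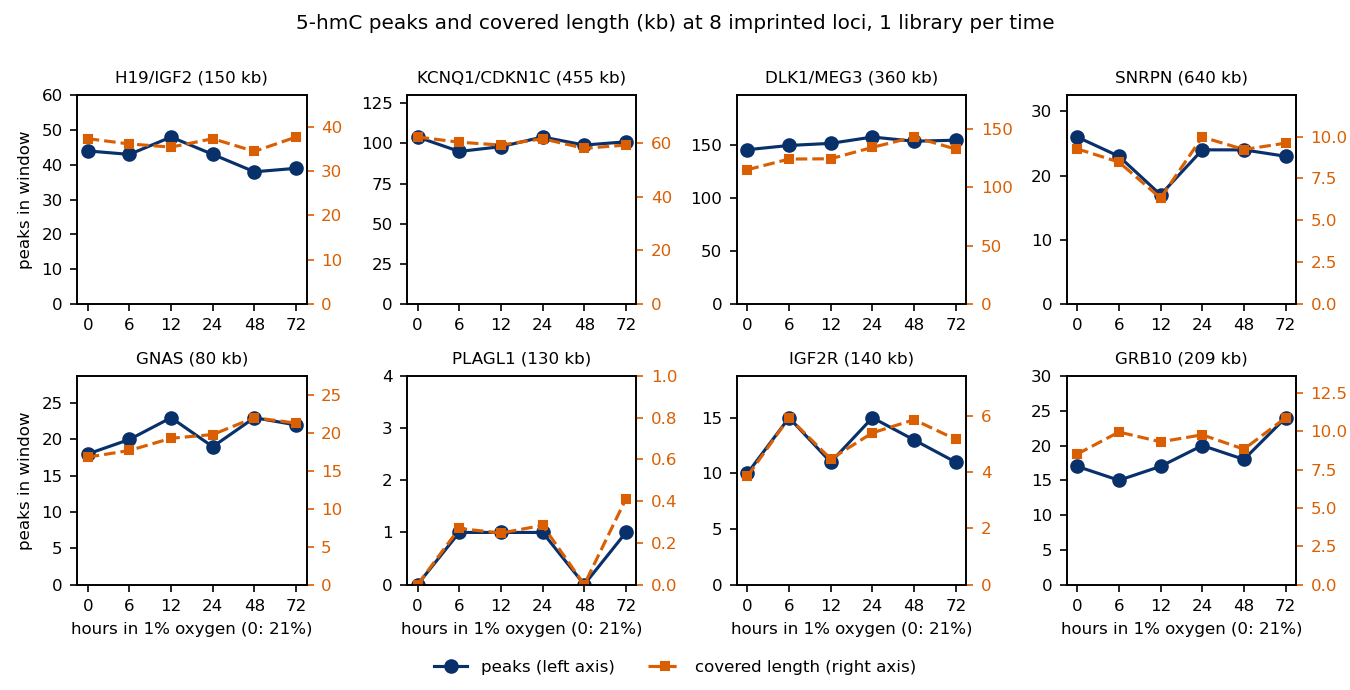
Peak number (circles, left axis) and length covered by peaks in kb (squares, right axis) in each of the 8 windows at 0 h (21% oxygen) and 6 to 72 h (1% oxygen), 1 library per time. DLK1/MEG3 lies between 146 and 158 peaks, and PLAGL1 at 0 or 1.

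The loci with the largest covered share were the same 4, DLK1/MEG3, GNAS, H19/IGF2 and KCNQ1/CDKN1C. Peaks covered 32.1, 34.3, 34.4, 37.1, 39.6 and 36.8% of the DLK1/MEG3 window over the 6 times. They covered 21.5, 22.8, 23.7, 24.2, 27.1 and 27.2% of the GNAS window, and between 22.8 and 24.97% of H19/IGF2. For KCNQ1/CDKN1C the range was 12.8 to 13.7%. SNRPN lay between 0.988 and 1.56%, and PLAGL1 at 0.316% or less. The covered share of the GNAS window was thus higher at each later time, by little between 48 and 72 h, while KCNQ1/CDKN1C had its highest share at 0 h.

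The question was then whether hypoxia changed the loci relative to the rest of the genome. Together they kept about the same number of peaks while the lists grew. They held 107 of every 100000 peaks at 72 h (interval 96.2 to 118), against 128 at 0 h (115 to 142). The values between were 124, 125, 123 and 110 over the times of 6 to 48 h, so the lower level was seen at the last 2 times. As a ratio to 0 h divided by the ratio of the list totals (the relative ratio), this was 0.834 at 72 h (0.720 to 0.966) and 0.856 at 48 h (0.739 to 0.992). Before that it was 0.967, 0.975 and 0.962 at 6, 12 and 24 h, with intervals that held 1.

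The neighbourhood of the loci did the same. Windows of equal length on both sides of each locus, without any peak of the 8 windows, held 561 peaks at 72 h against 547 at 0 h, a relative ratio of 0.830 (0.737 to 0.936). At 48 h the flanks gave 0.856. The lower relative number of the 8 loci together is therefore not particular to them. Some single flanks differed from their loci at 72 h. The left flank of DLK1/MEG3 gave 0.755 (166 peaks against 178), beside 0.859 for the locus. That of GRB10 gave 0.775, beside 1.13. At H19/IGF2 the flanks gave 0.984 and 0.912, beside 0.718. Peak density moved with the relative number too. The windows of 200 kb in the same decile of peak density as each locus had relative ratios of 0.855 to 1.28 at 72 h, lower in denser windows. SNRPN (7.14 peaks per 200 kb) and PLAGL1 (1.03) were sparser than the windows of every decile and were set against the lowest. Divided by those ratios the 8 loci came to 0.884, for which no interval was computed, so whether it would hold 1 is not known. The part of density in the result was not tested further.

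By a rule of size, a locus was called lower when its relative ratio was 0.8 or less and higher when it reached the inverse of 0.8. The background was all 9544 windows of 200 kb with a mean of at least 10 peaks. In windows of their own length 7 of the 8 loci reached that mean, PLAGL1 being the exception. SNRPN reached it over 640 kb but had 7.14 peaks per 200 kb, so every background window was denser than it. At 72 h, 3 of the 7 loci were lower (H19/IGF2, KCNQ1/CDKN1C and SNRPN), where 7.45% of windows were, and 0 were higher, where 18.7% were. At 48 h H19/IGF2 and SNRPN were lower, against 6.00% of windows, and 0 loci were higher, against 16.0%. At 24 h IGF2R was higher, against 9.58% of windows, and 0 were lower, against 3.66%. At 12 h SNRPN was lower, against 5.05%, and 0 were higher, against 6.42%. At 6 h IGF2R was higher, against 7.00%, and 0 were lower, against 5.07%. The median relative ratio of the 7 loci at 72 h was 0.859, beside 1.02 for the 9544 windows. The interval of every one of the 7 loci held 1 at every time, so the calls rest on size alone, and numbers as small as those of IGF2R and SNRPN pass the fold with a handful of peaks.

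**Figure D2:**
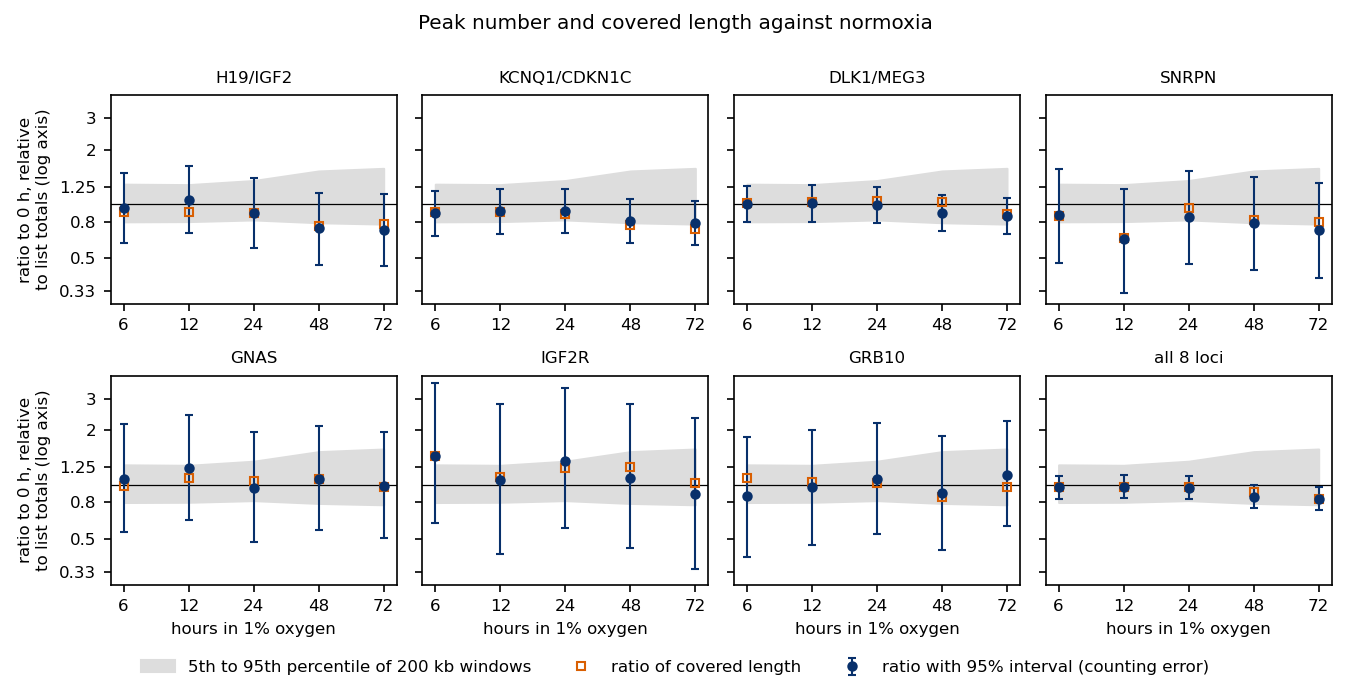
Relative ratio to 0 h (log axis) of peak number, with its 95% interval for counting error (circles), and of covered length (open squares), at 6 to 72 h for 7 loci and for the 8 together. The grey band holds the 5th to 95th percentile of 200 kb windows. At 72 h H19/IGF2 and SNRPN, both at 0.718, lie below its lower edge of 0.775. SNRPN, at 7.14 peaks per 200 kb, is sparser than any window of the band.

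H19/IGF2 had a relative ratio of 0.953, 1.06, 0.893, 0.733 and 0.718 from 6 to 72 h. The interval at 72 h was 0.454 to 1.13, and 2.35% of 11185 windows of the same length had a lower ratio. Its direct flanks were closer to the genome at 72 h, with 67 peaks against 55 at 0 h on the left (0.984) and 44 against 39 on the right (0.912). Covered length was 37.6 kb at 72 h against 37.3 kb at 0 h, a relative ratio of 0.771. With peaks of at least 500 bp alone the relative ratio was 0.853, which ends the call.

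At the far end of the H19/IGF2 window, neighbouring peaks were joined from 24 h on. On chromosome 11 from 2153880 to 2158496, a merged region (overlapping peaks of all lists joined) held 2 peaks covering 3809 bp at 0 h, 2 covering 4416 bp at 6 h and 3 covering 4295 bp at 12 h. From 24 h on it was 1 peak of 4471, 4500 and 4617 bp. This region had the window's largest gain in covered length, 808 bp.

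The region that opens the window behaved the other way. On chromosome 11 from 2008782 to 2016078, it was 1 unbroken peak of 7142 bp at 0 h, wider than all but 18 peaks of the 0 h list. It was 2 peaks at 6, 12 and 24 h and 3 peaks at 48 and 72 h, the widest of them 4292 and 4199 bp. The covered length was 7142, 7089, 7056, 7162, 6516 and 6766 bp, so the break-up took little of it away. The region starts before the window, and its first fragment at 12, 48 and 72 h has its midpoint outside and is not counted in the window. Between these ends of the window, 32.8 kb (52.7 to 85.5 kb from the window's start) had no peak in any list.

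KCNQ1/CDKN1C, on the same chromosome arm, had relative ratios of 0.891, 0.914, 0.914, 0.806 and 0.786. The interval at 72 h was 0.592 to 1.04, and 2.53% of 5090 windows of the same length had a lower ratio. The right flank had 78 peaks at 72 h against 81 at 0 h (0.780) and the left flank, which takes in the H19/IGF2 window, 126 against 121 (0.843). The short arm of chromosome 11 had a relative ratio of 0.926 at 72 h, with 21.8% of its 147 windows of 200 kb called lower. Against the total of its own chromosome the ratio of KCNQ1/CDKN1C was 0.847, which ends its call, while that of H19/IGF2 was 0.774. The call of KCNQ1/CDKN1C also ended with the window trimmed (0.809) or extended (0.822) by 10% on each side, against windows of its density decile (0.831), against the total of the short arm (0.849) and with 6 h as the reference (0.883).

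Peaks at KCNQ1/CDKN1C also narrowed, where the genome's widened. Sites were compared where every list had a single peak, after taking off the narrowest width of the list. Of these, 11 of 43 (25.6%, interval 13.5 to 41.2%) were wider at 72 h than at 0 h, against 65.5% of 155718 sites in the genome. The 43 sites had a median width of 513 bp in the 72 h list, against 528 bp in the 0 h list. At 6, 12, 24 and 48 h the share wider than at 0 h was 37.2, 48.8, 51.2 and 30.2% of the 43, beside 55.7, 53.3, 59.9 and 64.7% in the genome. The intervals of the locus at 12 h (33.3 to 64.5%) and 24 h (35.5 to 66.7%) hold the genome's values. The share was 52.7% of 1893 sites on the short arm of chromosome 11 (50.4 to 54.9%), and 44.4% of 72 sites in the flanks of KCNQ1/CDKN1C (32.7 to 56.6%), which overlaps the interval of the locus itself. Of 46 steps of 10 kb along the window, 26 had less covered length at 72 h than at 0 h and 8 had more.

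Within the KCNQ1/CDKN1C window, the peaks lay mostly in the part beyond 213 kb from its start. A stretch of 62.0 kb without any peak (151 to 213 kb) parted 29 merged regions before it from 94 after it. The widest region, on chromosome 11 from 2826688 to 2828874, was covered over 2067, 2158, 2012, 2061, 2054 and 2042 bp, nearly constant over the 6 times. The largest loss was on chromosome 11 from 2796511 to 2798274, with 515 bp at 72 h against 1101 bp at 0 h, though at 6 to 48 h it had between 1215 and 1550 bp. The largest gain was on chromosome 11 from 2856159 to 2857211, with 851 bp at 72 h and no peak at 0 or 24 h.

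DLK1/MEG3 followed the genome in number up to 24 h (relative ratios of 1.00, 1.01 and 0.989) and had 0.893 at 48 h and 0.859 at 72 h. The interval at 72 h was 0.681 to 1.08. Among 285 windows of its length with a mean peak number within 25% of its own, 58.6% had a lower ratio. In covered length it had 115, 124, 124, 134, 143 and 133 kb, with the most at 48 h. Peaks of at least 2000 bp numbered 9, 12, 11, 14, 18 and 12, and they too had their highest number at 48 h.

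Sites with 1 peak in each list mostly widened at DLK1/MEG3. Of 49 such sites 37 were wider at 72 h than at 0 h (75.5%, interval 61.1 to 86.7%, beside 65.5% in the genome), and 42 were at 48 h. They had a median width of 586 bp in the 72 h list, against 512 bp in the 0 h list. In the flanks of the locus 42 of 77 were wider at 72 h (54.5%, interval 42.8 to 65.9%). The intervals of locus, flanks and genome overlap.

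The widest merged region of all 8 loci was also at DLK1/MEG3, 13819 bp on chromosome 14 from 101235070 to 101248888. It was covered over 13120, 13460, 12798, 13057, 12286 and 11960 bp, in 4, 3, 5, 6, 9 and 7 peaks. Its widest peak measured 7237, 9517, 7383, 4680, 3281 and 4962 bp, so the domain was in larger pieces up to 12 h than later. It was the region with the largest fall in the window, 1160 bp between 0 and 72 h. The largest gain, 1156 bp, was on chromosome 14 from 101307729 to 101312353, with 2973, 3215, 3875, 4226, 4420 and 4129 bp.

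**Figure D3:**
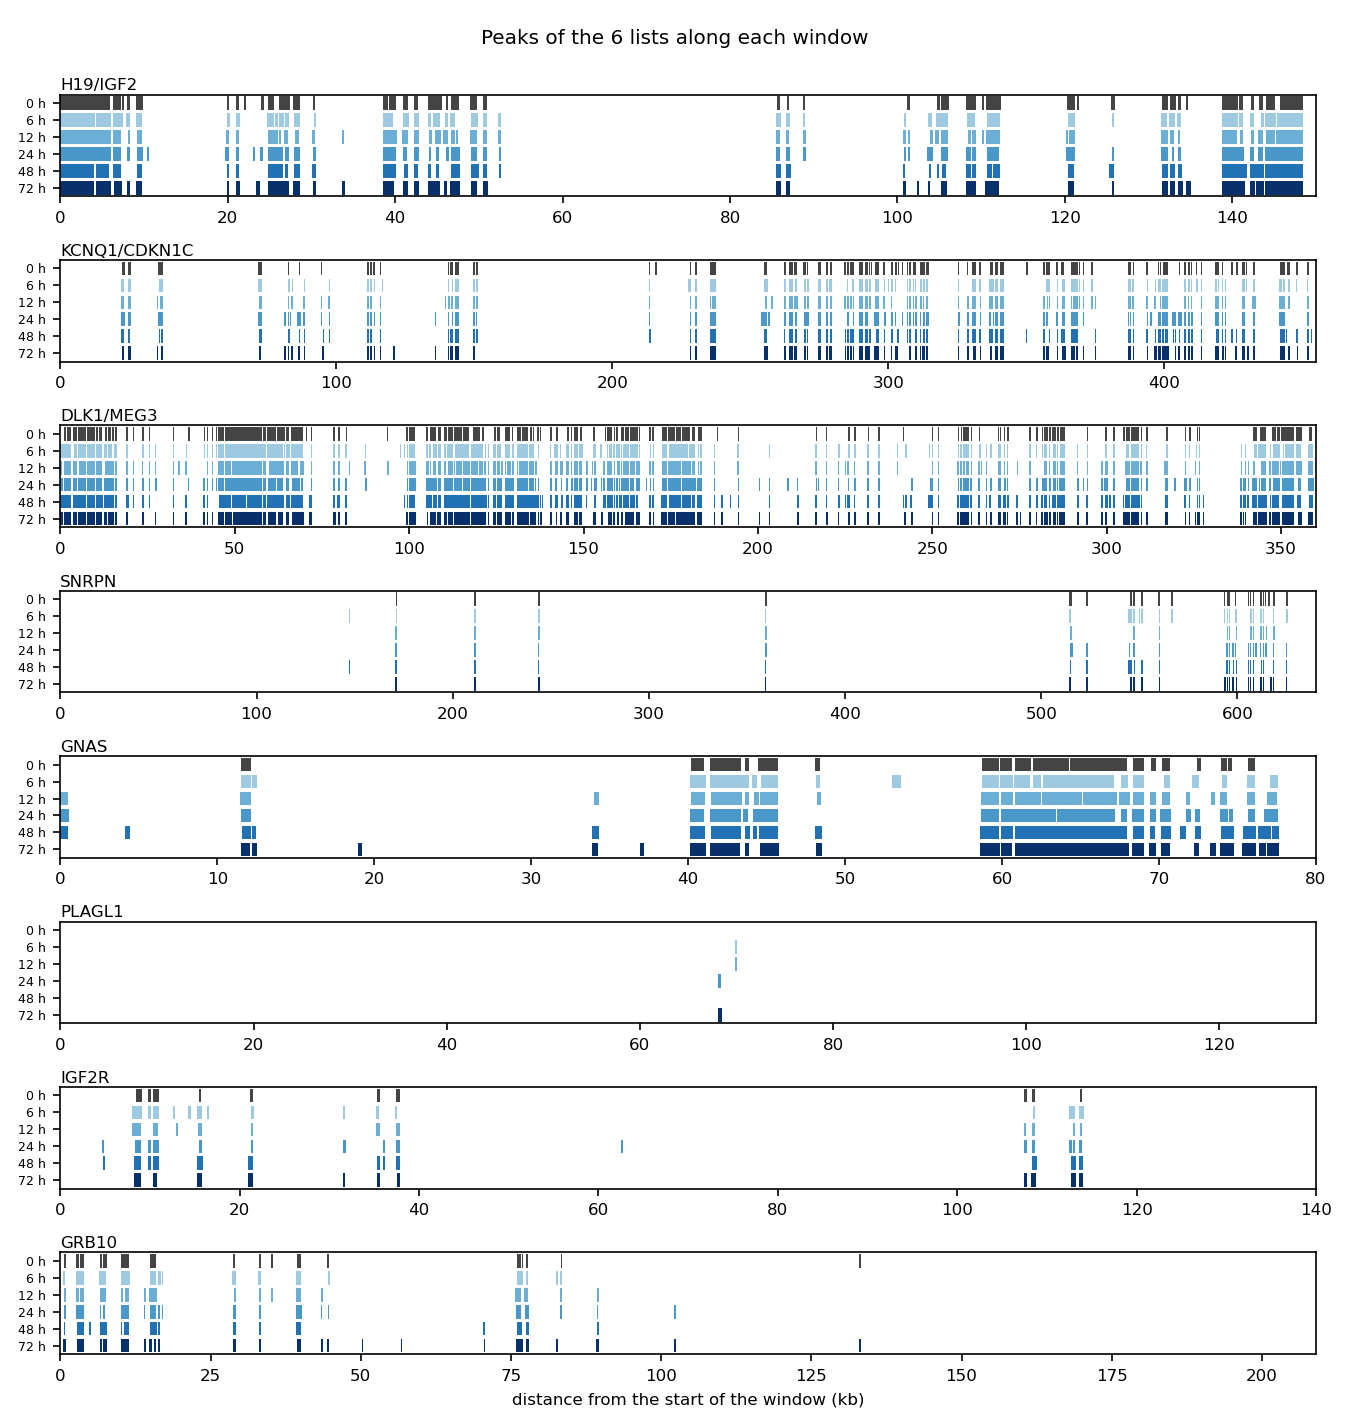
Peaks of the 6 lists (rows, 0 h at the top to 72 h at the bottom) along each of the 8 windows, with the distance from the window's start in kb on the horizontal axis. SNRPN is nearly bare up to 514 kb, and PLAGL1 has single peaks at about 68 and 70 kb.

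At GNAS each of the 18 peaks at 0 h overlapped a peak at 72 h. Of the 19 merged regions present at either time, 6 (31.6%) were at 72 h alone and 0 at 0 h alone. These shares are near those of the genome, where 27.9% of 361387 such regions were at 72 h alone and 7.37% at 0 h alone. The locus had relative ratios of 1.08, 1.23, 0.963, 1.08 and 0.984 for number and 0.968 for covered length at 72 h. With peaks of at least 500 bp alone the ratio for number at 72 h was 0.792, which is past the rule for lower. The peaks summed to 21.3 kb at 72 h, against 16.8 kb at 0 h.

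The GNAS window has a broad domain on chromosome 20 from 57469893 to 57478129. It was covered over 7658, 7293, 7779, 7572, 7884 and 7962 bp in 4, 5, 5, 3, 2 and 2 peaks. Its widest peak measured 3636, 4571, 2562, 3714, 7126 and 7267 bp, so that at 48 and 72 h nearly all of the domain was 1 peak, with 39 wider peaks in the list of either time. The covered length of the domain hardly differed between times, and the change lay in the joining of its pieces.

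A second GNAS region, on chromosome 20 from 57486338 to 57487663, had no peak at 0 h and grew at each later time, with 492, 687, 870, 1220 and 1232 bp covered at 6, 12, 24, 48 and 72 h. Its covered length at 72 h was the highest among the 15 regions of the 8 loci that were present in all 5 hypoxia lists and absent at 0 h. Taken alone, the last 10 kb of the window held 4.29 kb of peaks at 72 h against 1.78 kb at 0 h.

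**Figure D4:**
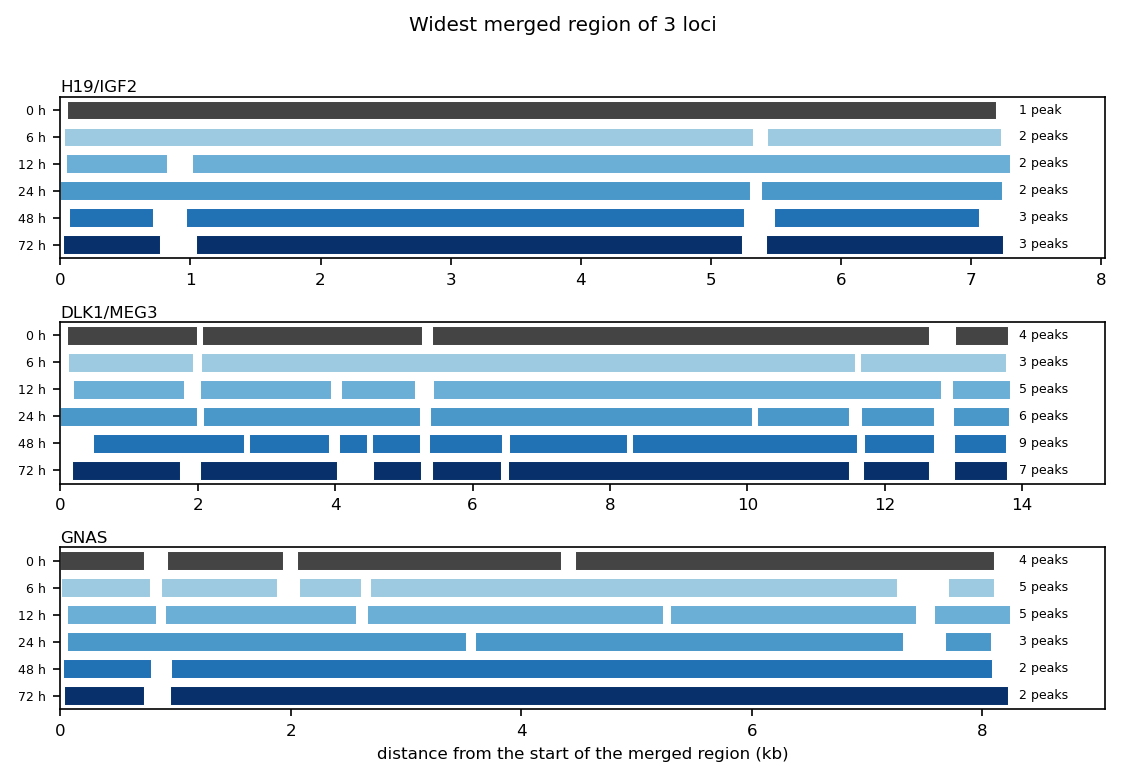
Peaks (bars) of each list within the widest merged region of H19/IGF2, DLK1/MEG3 and GNAS, with the distance from the region's start in kb on the horizontal axis and the number of peaks at the right. H19/IGF2 goes with time into 3 pieces, DLK1/MEG3 has its most pieces (9) at 48 h, and GNAS has 2 pieces at 48 and 72 h.

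The SNRPN window had fewer peaks at every hypoxia time than at 0 h. Most of its merged regions, 28 of 33, lay beyond 514 kb from its start, and peaks were not placed on the gene. The window's relative ratios were 0.864, 0.641, 0.845, 0.783 and 0.718, with an interval of 0.390 to 1.31 at 72 h. Sparse windows in general gained: the 296 windows of 640 kb with a mean peak number within 25% of SNRPN's together had a relative ratio of 1.23 at 72 h, and 1 of them had a lower ratio than SNRPN. Its flanks were too empty to compare, with 7 peaks at 72 h and 6 at 0 h on both sides together. With 6 h as the reference the ratio at 72 h was 0.830, which ends the call, while peaks of at least 500 bp gave 0.729.

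The 12 h list stood out at SNRPN. Of the 33 merged regions of the locus, 26, 23, 17, 24, 24 and 23 were present at 0, 6, 12, 24, 48 and 72 h, and 15 were present in all 6 lists. All 17 peaks at 12 h overlapped a 0 h peak. Of the 28 regions present at 0 or 72 h, 2 (7.14%) were at 72 h alone and 5 (17.9%) at 0 h alone, beside 27.9% and 7.37% in the genome. The regions were not spread evenly, since 154 kb without a peak (360 to 514 kb from the window's start) parted 5 regions from the 28 that filled the last part. The widest region, on chromosome 15 from 25677898 to 25678862, was covered over 631, 702, 517, 938, 843 and 880 bp.

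IGF2R had its highest numbers at 6 and 24 h, with relative ratios of 1.44, 1.06, 1.35, 1.09 and 0.886. The intervals were wide, 0.614 to 3.64 at 6 h and 0.343 to 2.34 at 72 h. For covered length the values were 3.86, 5.95, 4.47, 5.41, 5.87 and 5.17 kb. Its widest region, on chromosome 6 from 160397970 to 160399065, was covered over 666, 1096, 981, 762, 827 and 774 bp. A region on chromosome 6 from 160502459 to 160503276 was absent at 0 h and covered over 562, 231, 565, 543 and 569 bp at the later times. With peaks of at least 500 bp alone its ratio at 72 h was 1.60, and with 6 h as the reference 0.616. A stretch of 44.7 kb had no peak in any list.

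GRB10 was the single locus of the 7 with a relative ratio above 1 at 72 h. Its values were 0.863, 0.970, 1.07, 0.895 and 1.13, with an interval of 0.589 to 2.27 at 72 h. The value at 72 h was ordinary for its density. The 2581 windows of its length with a similar mean peak number together had a relative ratio of 1.15 at 72 h. Of these windows, 47.2% had a lower ratio than GRB10. Divided by the ratio of windows in its density decile, GRB10 came to 0.974 at 72 h. Of the 23 merged regions present at 0 or 72 h, 9 (39.1%) were at 72 h alone and 2 (8.70%) at 0 h alone, beside 27.9% and 7.37% of such regions in the genome. The 9 peaks at 72 h without a 0 h overlap had a median width of 263 bp. With peaks of at least 500 bp alone the ratio was 0.617, and by covered length 0.976. Its widest region, on chromosome 7 from 50666029 to 50667523, was covered over 1358, 1474, 1074, 1302, 1164 and 1481 bp. The last 75.8 kb of the window held no peak, and the right flank 1 peak in the lists of both 0 and 72 h. The left flank was dense, with 67 peaks at 72 h against 70 at 0 h (0.775, past the rule for lower).

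At PLAGL1 the single peaks were at 2 places. One, on chromosome 6 from 144328094 to 144328504, was present at 24 h (284 bp) and 72 h (411 bp). The other, on chromosome 6 from 144329805 to 144330097, was present at 6 h (269 bp) and 12 h (247 bp). The rest of the 130 kb had no peak in any list. With at most 1 peak per list no ratio was formed.

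**Figure D5:**
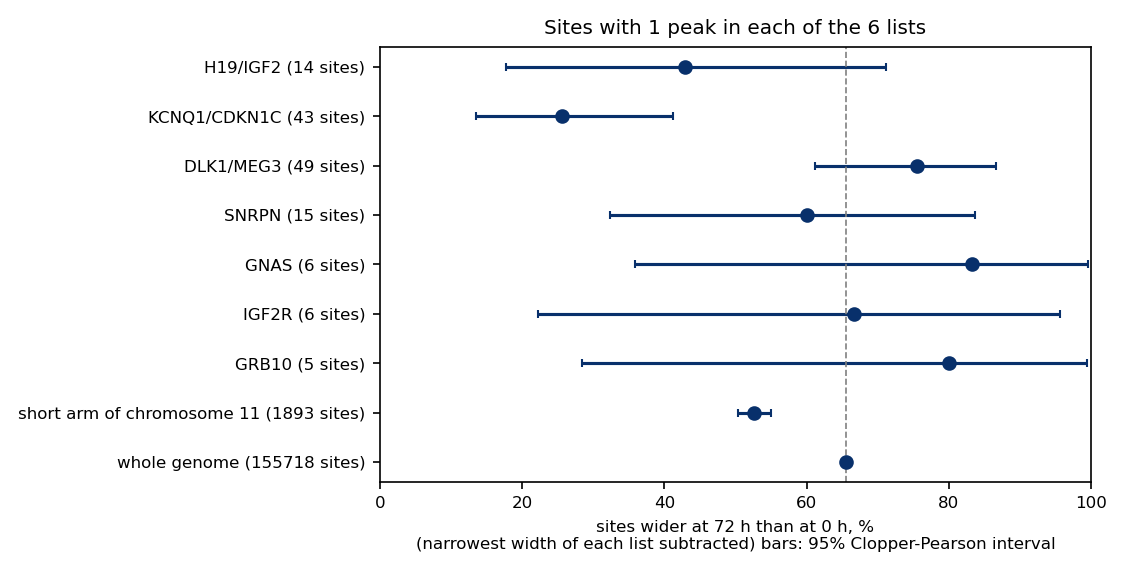
Share of sites (%) that were wider at 72 h than at 0 h, by locus, for sites where every list had a single peak, with the narrowest width of the list taken off, with 95% Clopper-Pearson intervals. KCNQ1/CDKN1C, at 25.6%, lies below the short arm of chromosome 11 (52.7%) and the genome (65.5%, dashed line). Its flanks, not drawn, had 44.4% of 72 sites (32.7 to 56.6%), an interval that overlaps that of the locus.

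Site by site, the loci had a smaller share of regions in the last list alone than the genome, while the share in all lists had an interval that held the genome's value. Of the 419 merged regions of the 8 loci, 216 were in all 6 lists (51.6%, interval 46.7 to 56.4%, beside 46.8% of 415474 in the genome). In the 72 h list alone were 9 (2.15%, 0.987 to 4.04%, beside 7.13%). In all 5 hypoxia lists and not at 0 h were 15 (3.58%, 2.02 to 5.84%, beside 2.99%), and at 0 h alone 9 (2.15%, 0.987 to 4.04%, beside 1.84%). Of the peaks at 72 h, 81.4% overlapped a 0 h peak (77.1 to 85.2%), beside 70.3% of the whole list. GNAS (68.2% of 22 peaks) and GRB10 (62.5% of 24) were below the whole list, and the single PLAGL1 peak had no overlap. The other loci were above it. No background of like density or width was set beside these shares. In the other direction 86.3% of 0 h peaks overlapped one at 72 h (82.3 to 89.7%), beside 89.8%.

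Of the regions gained in hypoxia, DLK1/MEG3 held 9 of the 15 that were in all 5 hypoxia lists and not at 0 h, which is 5.96% of its 151 regions. Its interval (2.76 to 11.01%) holds the genome's 2.99%, and the locus has 151 of the 419 regions of the 8 loci. H19/IGF2 and KCNQ1/CDKN1C held 2 each, GNAS and IGF2R 1 each, and SNRPN, GRB10 and PLAGL1 0. The 9 of DLK1/MEG3 had between 250 and 645 bp covered at 72 h. Of the 9 regions seen in normoxia alone, KCNQ1/CDKN1C held 3, and H19/IGF2, DLK1/MEG3 and SNRPN held 2 each. The widest normoxia-only region of each of these loci was narrow, with 262 bp at H19/IGF2 (chromosome 11 from 2031956 to 2032217), 263 bp at KCNQ1/CDKN1C (chromosome 11 from 2675558 to 2675820), 255 bp at DLK1/MEG3 (chromosome 14 from 101260410 to 101260664) and 320 bp at SNRPN (chromosome 15 from 25619251 to 25619570). These lie near the narrowest width of the 0 h list, 226 bp.

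The loci were rich in wide peaks at every time. Peaks of at least 1000 bp made up 18.9% of the 376 peaks of the loci at 72 h, beside 8.67% of the whole list. At 0 h they made up 18.6% of the 365, beside 7.73%. At 72 h they numbered 42 at DLK1/MEG3, 13 at KCNQ1/CDKN1C, 9 at H19/IGF2, 5 at GNAS and 2 at GRB10. SNRPN, PLAGL1 and IGF2R had 0 of them at that time. Peaks of at least 2000 bp numbered 14, 17, 16, 22, 24 and 18 over the 6 times, which at 72 h was 4.79% of the loci's peaks beside 1.26% of the list. Most were at DLK1/MEG3 (9 to 18), with 2 to 4 at H19/IGF2, 1 to 3 at KCNQ1/CDKN1C and 1 or 2 at GNAS. SNRPN, PLAGL1, IGF2R and GRB10 had 0.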

How the data were processed

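DNA sheared to 300 bp was captured by chemical labelling of 5-hmC, per the labels' protocols. The deposited lists give chromosome, start and end of each peak, without height, fold, p or summit. Per the submitters' processing notes, the tools were BWA 0.7.17, MACS2 and HTSeq and the build hg19, with no role attached. The peak threshold is not given in the sources used here, nor is the control. The input library was not analysed here. The narrowest peak differed between lists (226 to 242 bp), which bears on widths.

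Peaks were counted by midpoint. The relative ratio has 0.5 added to both numbers, and its interval is exact and conditional on their sum. Peaks sharing 1 bp or more overlap. Intervals of shares are Clopper-Pearson. No test was run, since each time has 1 library. Members, windows and rules were chosen with earlier results of these data known. The comparisons with windows of like density and with the short arm of chromosome 11 were chosen after seeing the data. The regions named in each window are the widest on average, the widest in all 5 hypoxia lists but not at 0 h, the widest at 0 h alone, and those with the largest change of covered length in each direction, of which a part is printed. Alternatives were covered length, other window edges, peaks of at least 500 bp, equal list lengths, merging over 300 bp, other totals and 6 h as the reference. The computations were tested on simulated lists. Python 3.11.15, NumPy 2.4.6, pandas 2.3.3, SciPy 1.17.1 and Matplotlib 3.10.9 were used. Other imprinted genes were not placed, for want of an hg19 annotation.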

Additional observations from a re-analysis of the deposited data

How the results depend on the processing

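Of 113 alternatives, 104 stayed within the value's interval or within 1.5 times the count, 9 moved further and 0 reversed a called direction. Intervals of single loci are wide (0.343 to 2.34 for IGF2R), so staying within one is a weak criterion. A reversal could be scored only for the 3 loci called at 72 h. The relative number of the 8 loci together at 72 h ranged from 0.805 to 0.884 over 18 alternatives, among them each locus left out (chosen after seeing the data). The 3 lower loci stayed below 1 in every alternative, H19/IGF2 at 0.718 to 0.853, KCNQ1/CDKN1C at 0.713 to 0.883 and SNRPN at 0.562 to 0.830. Loci lower at 72 h numbered 0 with a fold of 1.5. With peaks of at least 500 bp 1 locus was higher (IGF2R, 1.60) and 4 were lower (KCNQ1/CDKN1C, SNRPN, GNAS and GRB10). With 6 h as the reference 1 was higher (GRB10, 1.31) and 2 were lower (H19/IGF2, 0.754, and IGF2R, 0.616). With the total of the same chromosome 2 were lower (H19/IGF2 and SNRPN). IGF2R ranged from 0.616 to 1.60 and GRB10 from 0.617 to 1.31. The share of 72 h peaks of the loci overlapping a 0 h peak was 71.8% with overlap of at least 0.5 of both, 96.3% for peaks of at least 500 bp and 87.0% with the same number of peaks per list. Windows lower at 72 h were 13.4% at 100 kb and 3.02% at 500 kb, and windows higher 12.2% at 100 kb. The causes were not tested. Depth is unknown, so its effect on peak number and on the joining of peaks has no value here. No paired analysis was possible because each time has 1 library.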
